A study of Mus musculus with 6 samples.

Results

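The genes examined were the matrix metalloproteinase (MMP) genes Mmp2, Mmp3, Mmp9, Mmp14, Mmp15 and Mmp19 and the genes Timp1, Timp2, Timp3 and Timp4 of the tissue inhibitors of metalloproteinases (TIMPs). They were taken by symbol from the deposited count table, which had a row for each of the 10 among 45703 genes. RNA sequencing had been done on 6 replicate cultures of cells dissociated from dorsal root ganglia (DRG), which flank the spinal cord and house the cell bodies of sensory neurons together with glia. The mice were wild-type C57BL/6 animals between 4 and 6 weeks of age. All 6 cultures were grown for 7 days with 10% fetal calf serum and with the growth factors EGF and FGF at 10 ng/ml each, and were pooled from 2 dishes per sample. The samples analysed here form 1 group, with no contrasting condition, so the comparisons were between genes within a culture and between cultures. The series calls the samples biological replicates without saying which animals each came from, so p-values refer to these samples and not to animals.

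MMPs are zinc-dependent proteases that cut collagens and other proteins of the extracellular matrix as well as growth factors and receptors. They are made as inactive proenzymes whose propeptide must be removed. TIMPs are small secreted proteins that bind the active site of MMPs and block it, and TIMP3, which is held in the matrix, also inhibits several ADAM and ADAMTS proteases. MMP14, anchored in the cell membrane, activates the proenzyme of the gelatinase MMP2, and TIMP2 takes part in that step by bridging the proenzyme to MMP14, although it inhibits MMP14 when in excess. In peripheral nerve, MMP9, MMP2 and TIMP1 are known for their part in the response to injury, when glia, fibroblasts and invading macrophages remodel the matrix.

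Promoter sequence was available for 7 of the 10 genes in the RefSeq table for GRCm38.p6, as 250 bases before and 50 after the start; Mmp2, Mmp9 and Mmp19 had no entry. Among the 7, leaving out Timp4 with at most 2 counts in a library, Mmp3 and Timp1 differed most between cultures. The 100 bases ahead of the start are printed for both. They are also printed for Timp2 and Mmp14, the inhibitor and the membrane protease of the proMMP2 activation step, which varied less. They lie at chr9:7445722-7445821 (plus strand), chrX:20870066-20870165 (plus), chr11:118355412-118355511 (minus) and chr14:54431498-54431597 (plus). Capitals mark matches on either strand to the AP-1 motif TGANTCA or to the Sp1 motif GGGCGG.
Mmp3: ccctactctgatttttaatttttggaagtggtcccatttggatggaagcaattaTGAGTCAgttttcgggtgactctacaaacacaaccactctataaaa
Timp1: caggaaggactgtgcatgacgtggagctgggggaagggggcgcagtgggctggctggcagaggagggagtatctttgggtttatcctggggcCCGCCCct
Timp2: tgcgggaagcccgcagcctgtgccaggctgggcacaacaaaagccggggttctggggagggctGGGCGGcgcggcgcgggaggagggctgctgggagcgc
Mmp14: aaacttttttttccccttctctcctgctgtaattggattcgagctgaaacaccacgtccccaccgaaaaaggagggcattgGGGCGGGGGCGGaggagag
Mmp3 was the only one of the 7 with the AP-1 motif, 40 to 46 bases before its start, and 7.81% of the 32851 RefSeq promoters of the same length held it. The Sp1 motif was in 5 of the 7, all but Mmp3 and Timp4, against 35.7% of all promoters. A loose NF-kB pattern, GGG and CC around any 5 bases, was in 6 of the 7, all but Mmp3, and in 50.8% of all promoters; it overlapped the Sp1 match in Timp1, Timp3 and Mmp15. The ETS core CCGGAA was in 0 of the 7 and in 14.9% of all promoters. These matches describe the letters in the window and are not binding sites.

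The libraries held 20070639 to 22968642 counts, and TMM factors, which correct library sizes for composition, lay between 0.976 and 1.02. Levels are given as CPM (a gene's count scaled to a fixed library total), or as CPM per kilobase of combined exon length where genes are compared with each other. The 10 genes together took 0.369% ± 0.0205 of all counts (SD, n = 6). Of genes used as markers, 10 of 10 neuronal and 7 of 7 glial lineage genes exceeded 1 CPM in all 6 libraries and so did 7 of 9 fibroblast and 6 of 9 macrophage genes. Markers of the labelled tissue and of other cell types were thus present, and in such bulk RNA fewer cells of a type and less RNA per cell cannot be told apart.

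Transcripts of 3 inhibitors and of MMP14 were the most abundant of the 10, and TIMP2 led in 5 of the 6 cultures. Timp2 (chromosome 11, 118301061 to 118355411, minus strand) had 1522, 1570, 1230, 1235, 1121 and 1273 CPM in replicates 1 to 6. Its mean of 366 ± 49.4 CPM per kb (SD, n = 6) ranked 72 of the 27837 genes with a count. The cultures differed for it by 1.40-fold between highest and lowest, close to the median of 1.38-fold over the genes that passed the low-count filter.

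Timp3 (chromosome 10, 86300412 to 86349505), the matrix-bound inhibitor, was the steadiest member. It had 850 CPM in the lowest library, a median of 903 and 1029 in the highest, and its coefficient of variation of 6.68% was above that of 19.1% of the 14998 genes that passed the low-count filter. Timp3 averaged 197 ± 13.1 CPM per kb (SD, n = 6).

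Timp1 (chromosome X, 20870166 to 20874737), the soluble inhibitor known as an injury and cytokine response gene, had a similar mean and a much wider spread. Its levels were 73.7, 118, 157, 234, 323 and 118 CPM in replicates 1 to 6. Replicate 5 was highest, replicate 1 lowest, and the ratio between them was 4.38. The mean was 192 ± 103 CPM per kb (SD, n = 6), and 96.4% of the tested genes had a lower coefficient of variation than its 53.9%.

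Timp4 (chromosome 6, 115244444 to 115252205, minus strand), the inhibitor best known from heart and fat, was at or near 0. It had 2, 0, 0, 1, 0 and 1 counts in replicates 1 to 6. A count of 0 allows up to 3 counts, which is 0.137 to 0.143 CPM in the 3 libraries without a count. These limits, and the intervals given further on, cover counting error only.

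Of the membrane-anchored proteases, Mmp14 (chromosome 14, 54431598 to 54442456) was the highest MMP in every culture. It had 719, 805, 616, 705, 837 and 671 CPM in replicates 1 to 6, a 1.36-fold range. Its mean was 191 ± 21.7 CPM per kb (SD, n = 6). Mmp15 (chromosome 8, 95352296 to 95374293), a second transmembrane MMP, was lower, at 41.6 ± 7.04 CPM per kb (SD, n = 6). Mmp15 had 128 CPM in its lowest library, replicate 5, a median of 183, and 215 in its highest, replicate 6.

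The 2 gelatinases differed sharply. Mmp2 (chromosome 8, 92827290 to 92853421) was present in all cultures at 155 CPM in the lowest, a median of 207 and 262 in the highest, or 66.4 ± 12.8 CPM per kb (SD, n = 6). Mmp9 (chromosome 2, 164940326 to 164955850) had 0, 3, 3, 96, 370 and 2 counts in replicates 1 to 6. Only replicates 4 and 5 therefore held Mmp9 above 3 counts, at 4.78 and 17.7 CPM. Replicate 5 was 3.70-fold above replicate 4 and at least 135-fold above replicate 1, taking 3 counts as the limit there. Without replicate 5, the mean of Mmp9 fell from 3.80 to 1.03 CPM.

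Mmp3 (chromosome 9, 7445822 to 7455975), stromelysin 1, which cuts proteoglycans and can activate other proMMPs, spread the most of the members detected in every library. Its levels were 4.79, 21.3, 8.96, 37.6, 131 and 16.4 CPM in replicates 1 to 6. The highest culture, replicate 5, exceeded the lowest, replicate 1, by 27.4-fold, and 99.9% of tested genes had a lower coefficient of variation. The mean of 36.7 CPM rested on replicate 5 and was 17.8 CPM without it. Mmp19 (chromosome 10, 128790910 to 128800827), a widely expressed secreted MMP, stayed between 87.0 and 136 CPM with a median of 116, or 33.3 ± 5.48 CPM per kb (SD, n = 6).

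**Figure D1:**
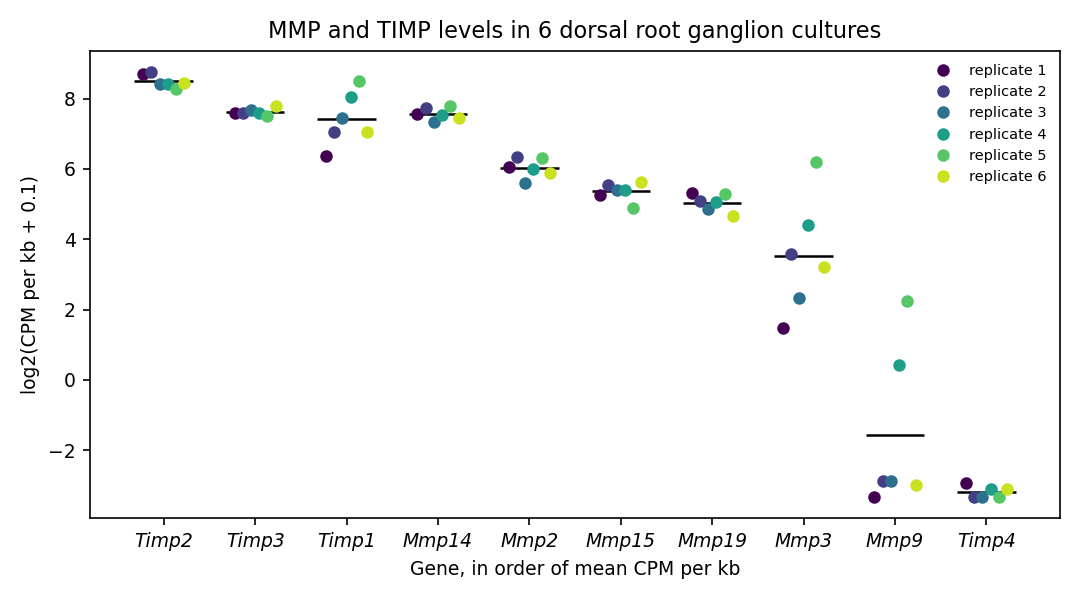
Level of each gene in each culture, as log2(CPM per kb + 0.1) on the vertical axis, with genes ordered by mean CPM per kb; a point is 1 culture and the bar is the mean of the 6 log values. Timp2, Timp3, Mmp14 and Mmp2 form tight groups of points, whereas Timp1, Mmp3 and Mmp9 spread, with replicate 5 at the top of each.

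By mean CPM per kb the order was Timp2, Timp3, Timp1, Mmp14, Mmp2, Mmp15, Mmp19, Mmp3, Mmp9 and Timp4. Within libraries, Timp2 stood above Timp3 by 0.89 ± 0.21 on the log2 scale and Mmp14 above Mmp2 by 1.54 ± 0.13, both in 6 of 6 libraries. Mmp2 stood above Mmp15 by 0.67 ± 0.46, also in 6 of 6 (SD, n = 6 for each). Mmp3 was above Mmp9 in 6 of 6, by an amount that the pseudocount sets in the 4 libraries with 3 or fewer Mmp9 counts. The other neighbours did not differ beyond their spread: Timp3 exceeded Timp1 in 4 of 6 libraries, Timp1 exceeded Mmp14 in 3, Mmp15 exceeded Mmp19 in 4 and Mmp19 exceeded Mmp3 in 5. Mmp9 and Timp4 were both at or under 3 counts in 4 libraries, where they have no order. In replicate 5 the order itself changed: Timp1 came first, ahead of Timp2, and Mmp3 ranked 6, ahead of Mmp19 and Mmp15.

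Pairs of members chosen for known function were then compared within libraries, as the difference of log2(CPM per kb + 0.1). Each had the same sign in 6 of 6 libraries. Each gave p = 0.0312 in the two-sided exact sign-flip permutation test (adjusted p = 0.0312 over the 7 pairs). This is the smallest value that 6 libraries allow, and any pair of genes with a constant order reaches it.

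The MMP14, TIMP2 and proMMP2 triad was present in a stable order, inhibitor first and substrate last. Timp2 exceeded Mmp14 by 2.22-, 2.05-, 2.10-, 1.84-, 1.41- and 1.99-fold in replicates 1 to 6 (difference of Mmp14 minus Timp2 -0.94 ± 0.24, SD, n = 6). The smallest excess was in replicate 5. Timp2 exceeded Mmp2 by 5.66 ± 1.09-fold (difference of Mmp2 minus Timp2 -2.47 ± 0.30), and Mmp14 exceeded Mmp2 by 2.92 ± 0.259-fold (difference of Mmp2 minus Mmp14 -1.54 ± 0.13; SD, n = 6 for each). These are transcript ratios and say nothing of the amounts of protein.

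Mmp14 exceeded the other transmembrane MMP, Mmp15, with a difference of 2.21 ± 0.37 (SD, n = 6), which was widest in replicate 5 at 2.89. Mmp2 exceeded Mmp9, the other gelatinase, by 50.6-fold in replicate 4 (95% interval 41.3 to 62.6) and by 17.3-fold in replicate 5 (15.6 to 19.3), both exact intervals for the ratio of 2 counts. In replicate 1, which had no Mmp9 count, the excess was at least 1928-fold. Timp1 exceeded Mmp9, the protease whose proenzyme it binds, by 210-fold in replicate 4 (172 to 260) and by 78.3-fold in replicate 5 (70.5 to 87.2), and by at least 2419-fold in replicate 1. Timp3 exceeded Timp4 by at least 3729- to 4312-fold in the 3 libraries without a Timp4 count. On the log2 scale, Mmp2 minus Mmp9 was 7.60 ± 2.22, Mmp9 minus Timp1 was -8.98 ± 1.66 and Timp3 minus Timp4 was 10.8 ± 0.172 (SD, n = 6), values whose size depends on the pseudocount of 0.1 because Mmp9 and Timp4 lay at or near 0.

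Summed over the members, TIMP transcripts outnumbered MMP transcripts in every culture. The 4 TIMP genes reached 694 to 854 CPM per kb and the 6 MMP genes 287 to 446. A further 17 MMP genes, described below, reached 96.8 ± 18.9 CPM per kb (SD, n = 6) and are not in these sums. The ratio of the sums was 2.07, 1.97, 2.503, 2.30, 1.91 and 2.21 in replicates 1 to 6, or 2.16 ± 0.220 (SD, n = 6). It was lowest in replicate 5, where both sums were highest.

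The makeup of both sums shifted between cultures. Timp1 made up 11.9% of TIMP transcripts per kb in replicate 1 and 42.5% in replicate 5, while Timp2 made up 60.5% and 36.3%. Timp3 stayed between 21.3% and 31.2%. Of the sum of the 6 MMP genes, Mmp14 held 54.3% ± 2.65 (SD, n = 6), and Mmp3 ranged from 0.792% in replicate 1 to 16.3% in replicate 5.

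**Figure D2:**
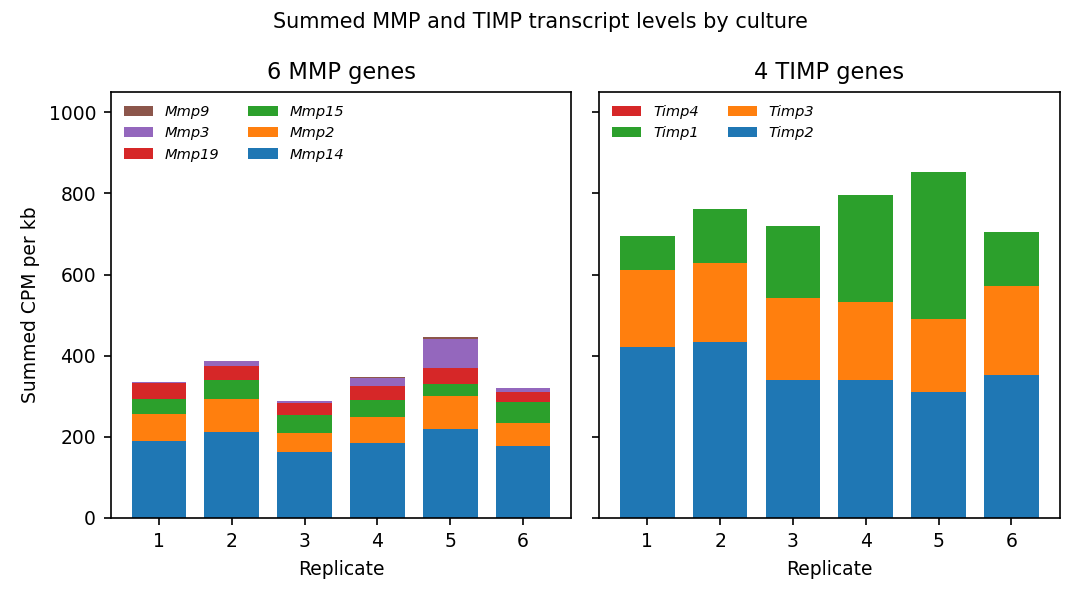
Summed level of the 6 MMP genes (left) and the 4 TIMP genes (right) in each culture, in CPM per kb on linear axes that start at 0; a bar is 1 culture and its segments are the genes. The MMP bars reach 287 to 446 and the TIMP bars 694 to 854, and in replicate 5 the Timp1 and Mmp3 segments are the thickest of the 6 cultures.

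Most genes of these libraries varied between cultures by more than counting noise. A chi-square test against counts in proportion to TMM-scaled library sizes, adjusted by the Benjamini-Hochberg method over all tested genes, called 11449 of 14998 (76.3%). Of the 10 members, 8 (all but Mmp9 and Timp4) passed the low-count filter, and 8 of these 8 were called. Because the call covered most genes, the size of the spread is the more informative value: the median coefficient of variation of the tested genes was 12.1%, and that of the members ran from 6.68% for Timp3, 11.4% for Mmp14 and 13.5% for Timp2 through 16.5% for Mmp19, 16.9% for Mmp15 and 19.3% for Mmp2 to 53.9% for Timp1 and 130% for Mmp3.

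Markers of cell types that a DRG culture can hold also differed between the cultures. The 9 fibroblast markers, among them Pdgfra, Dcn and Col1a1, summed to 622, 1141, 857, 1456, 2704 and 913 CPM per kb in replicates 1 to 6. Of the 9, 8 were highest in replicate 5 and 8 lowest in replicate 1. Among all tested genes, 29.2% were highest in replicate 5 and 23.8% lowest in replicate 1. The 9 macrophage markers, among them Csf1r and Cd68, summed to 8.20, 15.1, 58.2, 68.4, 80.4 and 21.5 CPM per kb. The 7 glial lineage markers, among them Sox10 and Erbb3, were lowest in replicate 5, at 1028 CPM per kb against 1319 to 1557 in the others. The summed endothelial markers ranged from 3.09 to 35.9 CPM per kb and the mural ones from 48.6 to 410, both highest in replicate 5 and lowest in replicate 1; the 10 neuronal markers ranged from 555 in replicate 5 to 1157 in replicate 3. No gene of these lists was at or under 3 counts in all 6 libraries. The scores of the lists (mean log2(CPM per kb + 0.1), TMM-scaled) were related to each other to differing degrees over the 6 libraries. The fibroblast score had r = 0.95 with the endothelial, 0.85 with the macrophage, 0.77 with the mural, -0.68 with the neuronal and -0.78 with the glial lineage score. The other 10 pairs ran from -0.87 (endothelial and glial lineage) to 0.85 (macrophage and mural), with values near 0 for the neuronal score with the macrophage (-0.20) and mural (-0.21) scores. A gene that goes with the fibroblast score can therefore hardly be told from one that goes with the endothelial or macrophage score.

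Timp1 and Mmp3 were the tested members closest to the fibroblast score. Pearson's r over the 6 libraries was 0.985 for Timp1 (exact permutation p = 0.00278, adjusted p = 0.132 over all genes) with Spearman's rho of 0.943 (exact permutation p = 0.0167, adjusted p = 0.300). For Mmp3, r was 0.955 (exact permutation p = 0.00694, adjusted p = 0.138) and rho 0.943 (exact permutation p = 0.0167, adjusted p = 0.300). Without replicates 1 and 5, whose scores lay farthest from the median, r was 0.948 for Timp1 and 0.725 for Mmp3. The other 6 tested members had r from -0.73 for Timp2 to 0.38 for Mmp14, with an unadjusted p above 0.05 each.

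With 720 pairings and this many genes, the permutation test called 0 of 14990 genes (0%) for the fibroblast score, 0 of 14991 (0%) for the glial lineage score and 0 of 14990 (0%) for the macrophage score. At an unadjusted p under 0.05 it held 3083, 2172 and 2343 genes, or 20.6%, 14.5% and 15.6%, and 2, 1 and 2 of the 8 members. The smallest p that 720 pairings give limits this test once it is adjusted over all genes. A model that shares its estimate of the spread between genes was therefore added after the data were seen: edgeR's quasi-likelihood test with the score as a covariate and Benjamini-Hochberg adjustment, fitted to all genes.

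In that fit, 907 of 14990 genes (6.05%) changed with the fibroblast score, and so did 2 of the 8 members, both rising. Timp1 rose by 0.65 log2 units per unit of score (edgeR's quasi-likelihood test, Benjamini-Hochberg adjusted p = 0.00124) and Mmp3 by 1.38 (adjusted p = 0.00335). Timp1 stayed called when any 1 replicate was left out, with slopes from 0.62 to 0.72 and adjusted p-values up to 0.0447. Mmp3 lost its call without replicate 5 (slope 1.23, adjusted p = 0.209), which also took the count over all genes from 907 to 43; without replicate 4 that count was 491. The slopes of Mmp2, Mmp14, Mmp15, Mmp19, Timp2 and Timp3 lay between -0.15 and 0.08, with adjusted p-values from 0.224 to 0.873. The median r with the fibroblast score was 0.24 over the 8 members and -0.05 over all tested genes.

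**Figure D3:**
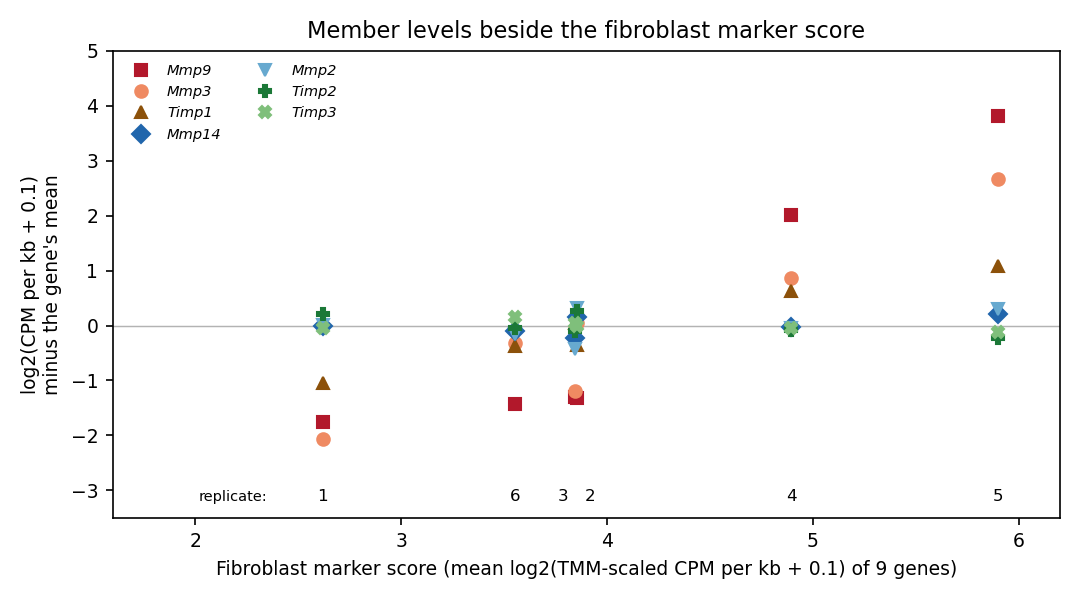
Level of 7 of the genes in each culture, as log2(CPM per kb + 0.1) minus the gene's mean, against the fibroblast marker score of the culture; a symbol is 1 gene in 1 culture and the replicate is written at the bottom. Mmp9, Mmp3 and Timp1 lie highest in replicates 5 and 4, at the right, whereas Mmp14, Mmp2, Timp2 and Timp3 stay near 0 across the range.

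Mmp9 failed the low-count filter and was examined over all 26845 genes with a count and no filter. Its r with the fibroblast score was 0.942 (exact permutation p = 0.00139, the smallest that 720 pairings give, adjusted p = 0.182) and its rho was 1.00 (exact permutation p = 0.00278, adjusted p = 0.326). Of its 6 values, 4 lay at or under 3 counts, where the cultures have no order. A rho of 1.00 uses an order among those 4 as well, so it shows only that replicates 5 and 4 ranked highest. Without replicates 1 and 5, r was 0.979, and replicate 4 was then alone above 3 counts.

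Against the glial lineage score, edgeR's quasi-likelihood test called 34 of 14991 genes (0.227%) and 0 of the 8 members after Benjamini-Hochberg adjustment. At an unadjusted p under 0.05 it held 2984 genes (19.9%), and 3 of the 8 members. The closest was Mmp15, with a slope of 0.99 (adjusted p = 0.0730) and r = 0.940 (exact permutation p = 0.0153, adjusted p = 0.322); without replicates 2 and 5, its r was 0.664. Mmp15 was lowest where the glial markers were lowest, in replicate 5. The other 2 ran the opposite way: Timp1 had a slope of -2.17 (adjusted p = 0.147) and r = -0.770 (exact permutation p = 0.0667, adjusted p = 0.359), and Mmp3 a slope of -4.15 (adjusted p = 0.155) and r = -0.705 (exact permutation p = 0.125, adjusted p = 0.418). Without replicate 5, r was 0.749 for Mmp15, -0.451 for Timp1 and -0.0405 for Mmp3. The glial lineage score ran only from 6.44 to 7.18, against 2.62 to 5.90 for the fibroblast score. Slopes per unit of the 2 scores are therefore not comparable in size. Of the remaining 5, Timp3 had r = 0.778 and Timp2 r = 0.718 (exact permutation p = 0.0917 and 0.0944, adjusted 0.384 and 0.389). For Mmp19, Mmp14 and Mmp2, r lay between -0.48 and -0.21.

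Against the macrophage score, the same fit called 140 of 14990 genes (0.934%) and 1 of the 8 members. Timp1 rose by 0.60 log2 units per unit of score (edgeR's quasi-likelihood test, Benjamini-Hochberg adjusted p = 0.0474), a call that was lost without replicate 1, 2, 4, 5 or 6 (adjusted p-values from 0.0652 to 0.258) and held without replicate 3 (adjusted p = 0.0108). Without replicate 3, Mmp3 also passed (slope 1.29, adjusted p = 0.0429), and it did not with all 6 (slope 1.11, adjusted p = 0.202). Timp2 went the other way, with r = -0.889 (exact permutation p = 0.0111, adjusted p = 0.210) and a slope of -0.16 that did not pass (adjusted p = 0.175). Whether the differing markers have a part in the levels of Timp1 and Mmp3 was not tested.

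The other 17 MMP genes of the mouse that were listed summed to 96.8 ± 18.9 CPM per kb (SD, n = 6), below the 6 members. Of these, 8 exceeded 1 CPM in all libraries and 4, Mmp1a, Mmp7, Mmp20 and Mmp21, were at or under 3 counts in all. The highest was Mmp17, a lipid-anchored membrane MMP, at 288 ± 26.7 CPM, followed by Mmp28 at 65.0 ± 6.48 CPM (SD, n = 6 for each). Mmp12, the macrophage elastase, had 2.87, 5.33, 45.4, 52.3, 102 and 19.9 CPM in replicates 1 to 6. Of the 8 that passed the filter, 2 rose with the fibroblast score, against 6.05% of all genes changing, in edgeR's quasi-likelihood test with Benjamini-Hochberg adjustment. They were Mmp11 (slope 0.68, adjusted p = 0.00348) and Mmp23 (slope 0.55, adjusted p = 0.0110), and both lost the call without replicate 5 (adjusted p = 0.180 and 0.334). Mmp12 rose with the macrophage score (slope 1.55, adjusted p = 0.0245, against 0.934% of all genes), a call lost without replicate 1, 2, 4 or 5 (adjusted p-values from 0.0893 to 0.177).

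Mmp3 lies in a run of 10 MMP genes over 427 kb of chromosome 9 (7272514 to 7699585), and its neighbours there were looked at after their values were seen. Of the 10, 7 exceeded 3 counts in some library. Mmp3 and 5 of the other 6, all but Mmp1b, were highest in replicate 5, Mmp27 by 11 counts to 10. Mmp3 and 4 others (Mmp13, Mmp12, Mmp10 and Mmp8) were lowest in replicate 1, with every other library above 3 counts. Among all 20726 genes above 3 counts in some library, 29.3% were highest in replicate 5 and 20.4% lowest in replicate 1 by the same criterion. The neighbours were chosen with the pattern of Mmp3 known, so these counts are a description. Mmp13, an interstitial collagenase, had 0.0435, 4.24, 1.62, 15.7, 35.2 and 0.622 CPM in replicates 1 to 6. Mmp10, stromelysin 2, had 0.174, 1.82, 0.785, 3.91, 6.26 and 1.41 CPM and ordered the 6 libraries exactly as Mmp3 did. Mmp3 and Mmp10 are related in sequence and both had fractional counts, so some reads may be shared between them.

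**Figure D4:**
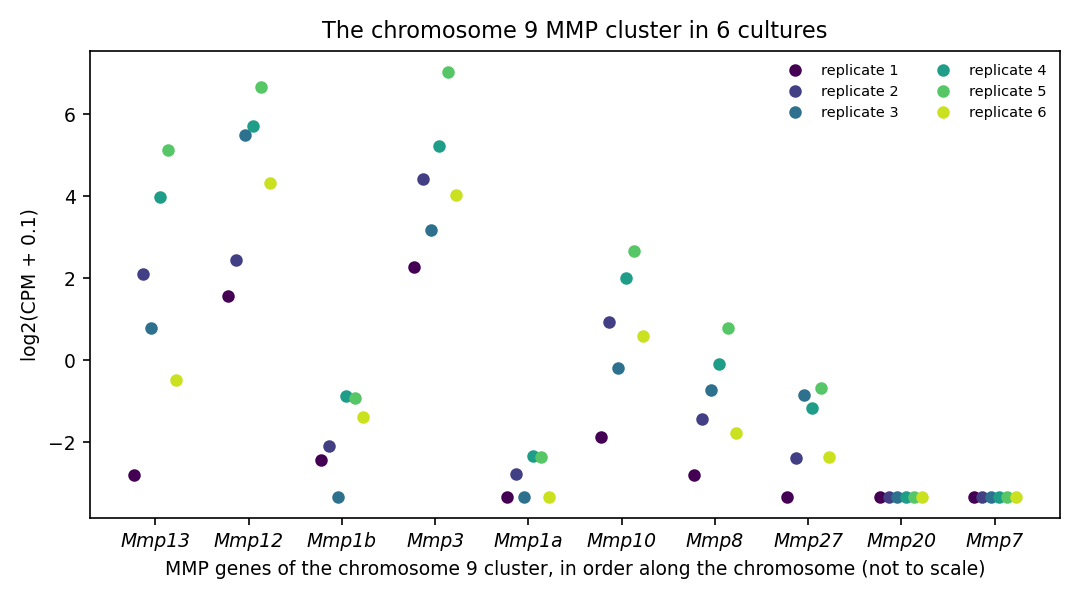
Level of the 10 MMP genes of the chromosome 9 cluster in each culture, as log2(CPM + 0.1) on the vertical axis, with genes in their order along the chromosome; a point is 1 culture. Replicate 5 is at the top for Mmp13, Mmp12, Mmp3, Mmp10, Mmp8 and Mmp27, whereas Mmp20 and Mmp7 have no counts in any culture.

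Genes that activate, anchor or clear MMPs were nearly all present. Of 13 listed, 12 exceeded 1 CPM in all libraries, and the exception was Plg, the gene of the protease precursor plasminogen, with at most 1 count. Furin, which cuts the propeptide of MMP14, had 188 ± 19.1 CPM, Reck, a membrane inhibitor of MMPs, 72.6 ± 15.2 CPM, and Lrp1, a receptor that takes up MMPs and TIMPs, 541 ± 158 CPM (SD, n = 6 for each). Plau, the urokinase that makes plasmin from plasminogen, had 4.27, 11.2, 25.6, 37.7, 52.7 and 14.2 CPM in replicates 1 to 6, highest in replicate 5 and lowest in replicate 1 like Timp1 and Mmp3. Of the 12 tested, 1, Plau, rose with the fibroblast score (slope 1.01, adjusted p = 0.0187) and with the macrophage score (slope 1.04, adjusted p = 0.0134), and 0 fell with either (edgeR's quasi-likelihood test with Benjamini-Hochberg adjustment). For the fibroblast score, 1 of 12 is near the 6.05% of all genes called. That call was lost without replicate 4 or 5 (adjusted p = 0.0567 and 0.152), and the macrophage call without replicate 1, 2, 4 or 5 (adjusted p-values from 0.0518 to 0.0901).

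All 15 listed ADAM and ADAMTS proteases, several of them targets of TIMP3, exceeded 1 CPM in all libraries. The highest was Adam10, a sheddase of membrane proteins, at 1054 ± 179 CPM (SD, n = 6). Of the 15, 3 rose with the fibroblast score, against 6.05% of all genes changing (edgeR's quasi-likelihood test with Benjamini-Hochberg adjustment). They were Adamts15 (slope 0.96, adjusted p = 0.00268), Adamts2 (slope 0.44, adjusted p = 0.0132) and Adamts10 (slope 0.66, adjusted p = 0.0398). All 3 lost the call without replicate 5 (adjusted p = 0.184, 0.121 and 0.365), and Adamts10 also without replicate 1, 2, 4 or 6 (adjusted p-values from 0.0505 to 0.0893). Adam8 rose with the macrophage score (slope 0.59, adjusted p = 0.0184, against 0.934% of all genes), a call lost without replicate 4 or 5 (adjusted p = 0.0837 and 0.0839). With any of the 3 scores, 0 of the 15 fell, and with the glial lineage score 0 changed.

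Among themselves the members fell into few like patterns, given here as correlations of log levels over the same 6 libraries. Markers of cell types differed between these libraries, and the correlations were not adjusted for them. Mmp2 and Mmp14, the proenzyme and its activator, had r = 0.99. Mmp3 and Timp1 had r = 0.90 and Mmp15 and Timp3 r = 0.86, whereas Timp1 and Timp2 had r = -0.81 and Mmp19 and Timp3 r = -0.82.

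Among 11925 other genes with a mean of at least 5 CPM, those most like each member over the 6 libraries were found by Pearson's r of log2 CPM. Lman2, a cargo receptor of the secretory pathway, was the closest to both Mmp2 (r = 0.998) and Mmp14 (r = 0.991). Closest to Mmp3 were Piezo1, a mechanically gated channel (r = 0.999), Rps12 and Rrbp1, and closest to Timp1 were Ncs1, Gm6977 and the leukocyte gene Cd53 (r = 0.997). Tnc, the matrix protein tenascin C, was among the 3 closest to Mmp19 (r = 0.986), and Itga3, an integrin subunit, was the closest to Timp3 (r = 0.994). Plaat3 was the closest to Mmp15 (r = 0.999) and Dcaf12 to Timp2 (r = 0.998). Such values are easily reached over 6 libraries: r was at least 0.9 for 5.69% of the genes with Mmp3 and 5.76% with Timp1, and for 0.864% with Mmp2.

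Timp1, Timp3 and Timp4 lie within the synapsin genes, which encode proteins of the synaptic vesicle of neurons, on the opposite strand. The strand setting of the counting is not given in the sources used here, so reads of the 2 partners cannot be told apart with certainty. Syn1, around Timp1, had 44.3 ± 14.2 CPM and shared 0 exon bases with it in the GENCODE annotation, and it was lowest, at 26.3 CPM, in replicate 5, where Timp1 was highest. Syn3, around Timp3, had 4.10 ± 1.06 CPM and shared 1733 exon bases, and Syn2, around Timp4, had 11.2 ± 4.33 CPM and shared 90 (SD, n = 6 for each). Mmp19 shares 789 exon bases with Tmem198b on the opposite strand, at 106 ± 8.43 CPM, a level close to that of Mmp19 itself.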

How the data were processed

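Levels came from a table of estimated counts per gene that the authors deposited for the 6 cultures, unscaled and partly fractional (fractional in 1 or more libraries for 6 of the 10 members). The submitters' processing notes name bcl2fastq 2.20.0.422, cutadapt 2.5, STAR 2.7.2b, featureCounts 1.6.4 and GRCm38.p6. The strand setting and the handling of multi-matching reads are not given in the sources used here. Per the labels, 500 ng of RNA with an integrity number of 8.7 or more went into each stranded poly-A library, amplified over 15 PCR cycles.

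CPM was computed on the deposited counts over library totals and divided by the table's combined exon length. Counts were rounded for edgeR 4.0.16 (filterByExpr, 14998 genes kept; TMM; quasi-likelihood fit) and for DESeq2 1.42.0 size factors, in R 4.3.3; other steps used Python 3.11.15, numpy 2.4.6, scipy 1.17.1 and pandas 2.3.3. Within-library differences were of log2(CPM per kb + 0.1), with an exact sign-flip test over 64 patterns. Marker scores were correlated over 720 pairings, with Benjamini-Hochberg adjustment over all genes. The threshold was an adjusted p under 0.05. Likeness used log2(CPM + 0.5), TMM-scaled, among genes of at least 5 CPM on average. The chi-square test and the test over pairings were tried on simulated data first. The edgeR fit on scores was tried on simulated data only after its fit to these data.

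Named genes were the members, genes overlapping them, the 3 genes most like each tested member, and listed genes above 1 CPM, or at or under 3 counts, in all 6 libraries; other genes of the chromosome 9 cluster were named after their values were seen. Members and lists were chosen with earlier results of these data known. Alternatives were other pseudocounts, scalings, filters and score definitions and leaving out each replicate; the edgeR fit on scores, and its repeats without each replicate for Timp1, Mmp3 and the listed genes it called, were added after seeing the data. The summed level and score for glial markers include 1 gene that is not reported here by itself.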

Additional observations from a re-analysis of the deposited data

Results flagged for a closer look

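In 2 of the 10 measures examined (the CPM of 9 genes and the ratio of summed TIMP to summed MMP levels), 1 culture stood far from the other 5. For Mmp3, the gap between replicate 5 (131 CPM) and the next culture, replicate 4 (37.6 CPM), was 0.740 of the whole range. For Mmp9, the gap between replicate 5 (17.7 CPM) and replicate 4 (4.78 CPM) was 0.729 of the range. Both exceed Dixon's critical value of 0.625 for 6 samples, which chance passes in about 1 of 20 groups of normally distributed values. The gaps were taken on CPM, where high values weigh most, and were not computed on the log scale used elsewhere. The 2 genes share the same libraries and are not independent measures. Replicate 5 was also the highest for Timp1, where the gap was 0.356 of the range.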

How the results depend on the processing

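The 7 within-library differences kept their sign and their p of 0.0312 with pseudocounts of 0.01 and 1 and with rounded counts. The pseudocount moved the size where a gene lay near 0, from 8.997 (0.01) to 5.42 (1) for Mmp2 minus Mmp9, from -10.4 to -6.79 for Mmp9 minus Timp1 and from 13.5 to 7.61 for Timp3 minus Timp4. With 1 replicate left out, the exact test cannot go below 0.0625, so none could pass. The differences then ranged from -1.02 to -0.89 for Mmp14 minus Timp2, from -2.58 to -2.41 for Mmp2 minus Timp2, from -1.57 to -1.50 for Mmp2 minus Mmp14, from 7.24 to 8.30 for Mmp2 minus Mmp9, from 2.07 to 2.28 for Mmp14 minus Mmp15, from -9.52 to -8.71 for Mmp9 minus Timp1 and from 10.77 to 10.86 for Timp3 minus Timp4.

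The ratio of summed TIMP to MMP levels was 2.41 without the highest gene of each (Timp2 and Mmp14) and 1.92 when not divided by length. The number of members varying beyond counting noise was 8 under both other scalings and without each replicate, and 9 with no low-count filter, where Mmp9 entered. Most tested genes were called in these settings too: 11436 of 14998 with DESeq2 size factors and 11535 with total counts only. Without single replicates, 10102 to 11261 of 14998 were called, and with no filter 13482 of 26854. Members associated with the fibroblast score numbered 0 by permutation and 2 by edgeR, against 0% and 6.05% of all tested genes. Those with the macrophage score numbered 0 and 1, against 0% and 0.934%.

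Correlations that changed sign were among Mmp2, Mmp14, Mmp15 and Mmp19, and none of these had passed the threshold with the score concerned. With the fibroblast score, leaving out single replicates gave r from -0.0743 to 0.46 for Mmp2, -0.0872 to 0.52 for Mmp14, -0.92 to 0.18 for Mmp15 and -0.29 to 0.80 for Mmp19. With the glial lineage score it gave -0.73 to 0.45 for Mmp2 and -0.79 to 0.46 for Mmp14. With the macrophage score it gave -0.60 to 0.10 for Mmp2, -0.60 to 0.18 for Mmp14 and -0.46 to 0.40 for Mmp19, and Spearman's rho for Mmp14 was 0.0857. The cause of these changes was not tested. No paired analysis was possible because there was only 1 group. Depth limits statements on Timp4, and on Mmp9 outside replicates 4 and 5, to upper bounds.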
